A study of Mus musculus with 36 samples.

Results

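Of the 51682 regions made by merging the H3K9ac peaks of 4 deposited lists from mouse hippocampus, 18524 (35.84%) were narrower than 3000 bp and overlapped a peak of every list. These regions, called constant here, were chosen by the measured peaks themselves: peaks on assembled chromosomes that overlapped or touched were joined across lists, and a joined region was kept if each condition contributed at least 1 peak to it. Presence in all lists is therefore the rule and not a finding. The remaining regions under 3000 bp were held by 3 lists (4575 regions), by 2 lists (6383) or by 1 list (21725). A further 475 regions of 3000 bp or more were also held by all 4 lists and are set apart as broad.

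The study measured the histone marks H3K9ac and H3K27ac, histone H3 acetylated at lysine 9 or 27, by chromatin immunoprecipitation and sequencing in the dorsal hippocampus of male mice aged to 8 weeks. The 4 conditions were Acss2 knockdown with ethanol, Acss2 knockdown without treatment, control vector with ethanol, and control vector without treatment. Knockdown (KD) mice had received an AAV2/9 vector in the dorsal hippocampus that carries a short hairpin RNA against Acss2 under a U6 promoter and EGFP under a CMV promoter, so the tissue also holds cells the vector did not reach; a control vector was given to the other mice. Ethanol was given into the peritoneum at 2 g per kg as a 20% solution, and the comparison group was left untreated. Each condition has 3 H3K9ac, 3 H3K27ac and 3 input libraries, but the 3 replicates of a group point to 1 shared peak list. There are thus 4 H3K9ac and 4 H3K27ac lists, no value per replicate and no test between conditions. The intervals given below are 95% Wilson intervals and cover counting error only. The libraries' sequencing depth is unknown from the peak lists. Whether fewer cells of a type or less acetylation per cell lies behind a list's values cannot be told apart in tissue of mixed cells.

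H3K9ac is placed on the histone tail by acetyltransferases, among them Kat2a (Gcn5) and Kat2b (PCAF), and taken off by deacetylases such as Hdac3 and Sirt6. The acetyl group comes from acetyl-CoA, which Acss2 makes from acetate, and acetate is a product of ethanol oxidation in the liver. The mark is best known from nucleosomes that flank the start sites of active genes, and most promoters of broadly expressed genes in mammals lie in CpG islands, stretches in which the dinucleotide CpG has not been depleted. H3K27ac marks active promoters and also active enhancers.

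The promoter windows below show the density of CpG that most windows overlapping a constant region have in common. They run from 250 bases before to 50 bases after the listed start, 5′ to 3′ on the strand of the gene, with every CpG in capitals, and come from RefSeq on GRCm38.p6. Mat2a, which makes the methyl donor S-adenosylmethionine, has 34 CpGs in its window (chr6:72439507-72439806, minus strand). Cntfr, a receptor for ciliary neurotrophic factor, has 45 (chr4:41695404-41695703, minus strand). H2bc23, a core histone gene, has 17 (chr13:21810150-21810449, minus strand). They overlap constant regions that are among the highest in score rank at protein-coding gene ends. Bases inside any constant region were 217 of 300 for Mat2a, 300 for Cntfr and 64 for H2bc23. At Mat2a and H2bc23 these bases fall in 2 constant regions each. Most of the printed sequence at both genes thus lies outside the region chosen for its rank.
Mat2a: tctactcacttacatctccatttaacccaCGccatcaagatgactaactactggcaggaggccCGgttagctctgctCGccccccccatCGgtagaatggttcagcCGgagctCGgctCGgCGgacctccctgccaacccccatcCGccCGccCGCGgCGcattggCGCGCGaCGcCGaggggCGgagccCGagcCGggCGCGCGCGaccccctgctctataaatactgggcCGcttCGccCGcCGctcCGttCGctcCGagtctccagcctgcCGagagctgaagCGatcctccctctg
Cntfr: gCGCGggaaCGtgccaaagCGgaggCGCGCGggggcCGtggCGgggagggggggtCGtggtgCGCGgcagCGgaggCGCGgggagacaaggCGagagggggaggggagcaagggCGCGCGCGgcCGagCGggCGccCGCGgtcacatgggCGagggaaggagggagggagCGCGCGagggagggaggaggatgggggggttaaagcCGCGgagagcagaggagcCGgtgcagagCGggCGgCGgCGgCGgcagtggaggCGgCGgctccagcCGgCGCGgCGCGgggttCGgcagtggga
H2bc23: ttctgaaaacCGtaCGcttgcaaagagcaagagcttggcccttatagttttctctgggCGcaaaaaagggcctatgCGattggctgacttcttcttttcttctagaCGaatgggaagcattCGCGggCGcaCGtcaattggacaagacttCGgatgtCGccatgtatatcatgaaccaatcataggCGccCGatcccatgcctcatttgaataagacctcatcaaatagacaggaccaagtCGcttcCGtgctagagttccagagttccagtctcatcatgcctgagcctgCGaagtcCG

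The next 4 windows belong to genes of the acetylation pathway itself, and each overlaps a constant region. The overlap was 82 of 300 bases at Acss2, 75 at Kat2a, 233 at Kat2b and 279 at Sirt6, the last over 2 constant regions. Acss2, the knockdown target, has 20 CpGs (chr2:155517793-155518092, plus strand). Kat2a has 19 (chr11:100712418-100712717, minus strand) and Kat2b has 11 (chr17:53566721-53567020, plus strand). Sirt6 has 20 (chr10:81627517-81627816, minus strand). The last window, shown for contrast, is that of the liver gene Alb, which had no H3K9ac peak at a gene end in any list and has 3 CpGs (chr5:90460620-90460919, plus strand); it was added outside the rule for printed sequences.
Acss2: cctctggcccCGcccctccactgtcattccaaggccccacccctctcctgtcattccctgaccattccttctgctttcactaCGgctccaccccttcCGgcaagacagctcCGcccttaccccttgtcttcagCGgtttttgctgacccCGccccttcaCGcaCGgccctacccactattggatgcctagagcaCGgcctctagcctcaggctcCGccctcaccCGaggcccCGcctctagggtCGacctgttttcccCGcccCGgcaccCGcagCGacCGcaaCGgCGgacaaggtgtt
Kat2a: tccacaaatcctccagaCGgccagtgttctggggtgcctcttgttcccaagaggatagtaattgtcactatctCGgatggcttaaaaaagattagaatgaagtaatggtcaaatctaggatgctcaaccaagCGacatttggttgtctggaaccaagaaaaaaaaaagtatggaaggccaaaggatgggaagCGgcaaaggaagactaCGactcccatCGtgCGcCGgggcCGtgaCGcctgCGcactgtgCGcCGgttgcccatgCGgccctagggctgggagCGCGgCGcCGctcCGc
Kat2b: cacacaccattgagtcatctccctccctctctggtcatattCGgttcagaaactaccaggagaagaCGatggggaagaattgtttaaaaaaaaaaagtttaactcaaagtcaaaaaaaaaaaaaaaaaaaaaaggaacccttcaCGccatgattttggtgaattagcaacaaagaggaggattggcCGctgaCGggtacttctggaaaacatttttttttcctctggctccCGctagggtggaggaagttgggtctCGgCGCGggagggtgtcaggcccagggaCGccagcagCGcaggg
Sirt6: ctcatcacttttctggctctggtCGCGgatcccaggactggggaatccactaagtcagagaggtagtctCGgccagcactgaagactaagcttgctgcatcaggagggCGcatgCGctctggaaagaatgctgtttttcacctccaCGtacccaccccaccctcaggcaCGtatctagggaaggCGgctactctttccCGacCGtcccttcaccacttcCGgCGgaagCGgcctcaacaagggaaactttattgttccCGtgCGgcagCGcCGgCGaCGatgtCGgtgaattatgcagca
Alb: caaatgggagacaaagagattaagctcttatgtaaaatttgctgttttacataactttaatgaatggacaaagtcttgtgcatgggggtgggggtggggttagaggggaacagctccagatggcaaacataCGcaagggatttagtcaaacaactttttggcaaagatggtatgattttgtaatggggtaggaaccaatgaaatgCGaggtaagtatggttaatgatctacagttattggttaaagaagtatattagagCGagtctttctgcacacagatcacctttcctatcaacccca

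Constant regions were wider than regions of fewer lists, and most ranked above the median of each list. A region joined from peaks of more lists tends to be wider, so the order of widths follows partly from the rule. Their width ran from 181 to 2998 bp with a median of 1038 bp, against medians of 445, 311 and 178 bp for regions of 3, 2 and 1 lists. They took in 54.9% of the peaks of the KD ethanol list, 62.5% of the KD untreated list, 80.7% of the control ethanol list and 60.6% of the control untreated list. By bases the shares were 75.2%, 78.6%, 86.9% and 77.9% in the same lists. The control ethanol list was the shortest, with 31042 peaks, against 42120, 38484 and 38235 in the KD ethanol, KD untreated and control untreated lists. In that list a larger share of the peaks fell in the constant regions.

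Peaks of the 4 lists did not cover a constant region to the same extent. The median region had 880 bp covered in the KD ethanol list, 828 bp in the KD untreated list, 673 bp in the control ethanol list and 857 bp in the control untreated list. The bases common to all 4 lists came to a median of 560 bp, or 55.7% of the region, and 96.9% of regions had at least 1 such base. The control ethanol list alone had the fewest covered bases in 61.7% of regions. In 50.0% of regions each list had exactly 1 peak.

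The rank of a region's highest-scoring peak within its own list, as a percentile, had a median of 75.9 in the KD ethanol list, 73.4 in the KD untreated list, 65.9 in the control ethanol list and 73.8 in the control untreated list. The score is the peak caller's own value and was used only as a rank within a list. In 12087 regions (65.3%) the rank was over the list median in all 4 lists, and in 1098 (5.93%) it was over 90 in all 4. In 971 (5.24%) it was under the median in all 4. Where a region held more than 1 peak of a list the highest was taken, which tends to raise its rank. Across the 18524 regions the ranks of any 2 lists had Spearman correlations of 0.785 to 0.834, a description over regions that share their libraries.

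At gene ends lay 13277 constant regions, or 71.7% (71.0 to 72.3), taking 1 kb on either side of either end of a protein-coding gene because the gene table gives no strand. The share was 32.4% in regions of 3 lists, 21.1% in regions of 2 and 13.5% in regions of 1. The order was the same within a width class: among regions of 500 to under 1000 bp the shares were 66.6% for constant regions and 29.6%, 21.9% and 7.97% for regions of 3, 2 and 1 lists. Peak score was not matched. Over all widths, a region's highest within-list percentile had a median of 82.0 in constant regions. The medians were 48.3, 34.5 and 18.1 in regions of 3, 2 and 1 lists. With the starts listed in the promoter table added to the gene ends, 81.9% of constant regions were at an end or a start. A listed start lay inside 7695 constant regions, and in 11.1% of those the region held starts on both strands, against 3.18%, 1.50% and 0.77% of the regions of 3, 2 and 1 lists that held a start.

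**Figure D1:**
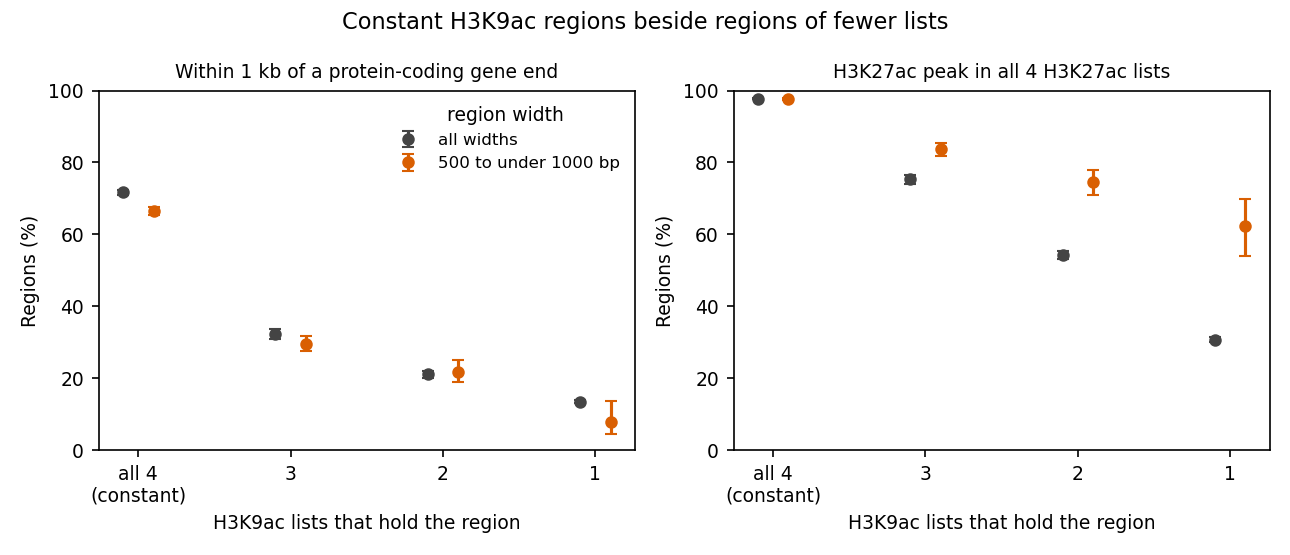
Percentage of H3K9ac regions within 1 kb of a protein-coding gene end (left) and with an H3K27ac peak in all 4 H3K27ac lists (right), by the number of H3K9ac lists that hold the region; points are shares and bars 95% Wilson intervals, for all widths under 3000 bp and for 500 to under 1000 bp. Constant regions lie highest in both panels, at 71.7% and 97.7% over all widths. Peak score was not matched between the classes.

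Around the start the peaks were off-centre. In the 6166 constant regions with 1 listed start, H3K9ac coverage was greatest 125 to 175 bp into the gene, at 96.0% of regions in the KD ethanol list, 93.6% in the KD untreated list, 89.8% in the control ethanol list and 95.2% in the control untreated list. It was lower just before the start, in the bin centred 75 bp upstream, at 52.8%, 48.2%, 38.3% and 53.8% in the same lists. Further upstream it reached a lesser summit in the bin centred at 225 bp, with 64.8%, 60.7%, 49.3% and 62.7%. At 475 bp into the gene 74.9% to 85.3% of regions were covered, and at 475 bp upstream 35.3% to 48.2%. H3K27ac had the same outline in the same regions, with 96.5% to 98.2% at 125 bp into the gene and 59.7% to 69.5% at 75 bp upstream. Start sites were not used by the rule for constant regions. Only regions holding a start were profiled, however, so coverage close to the start is partly set by that choice.

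**Figure D2:**
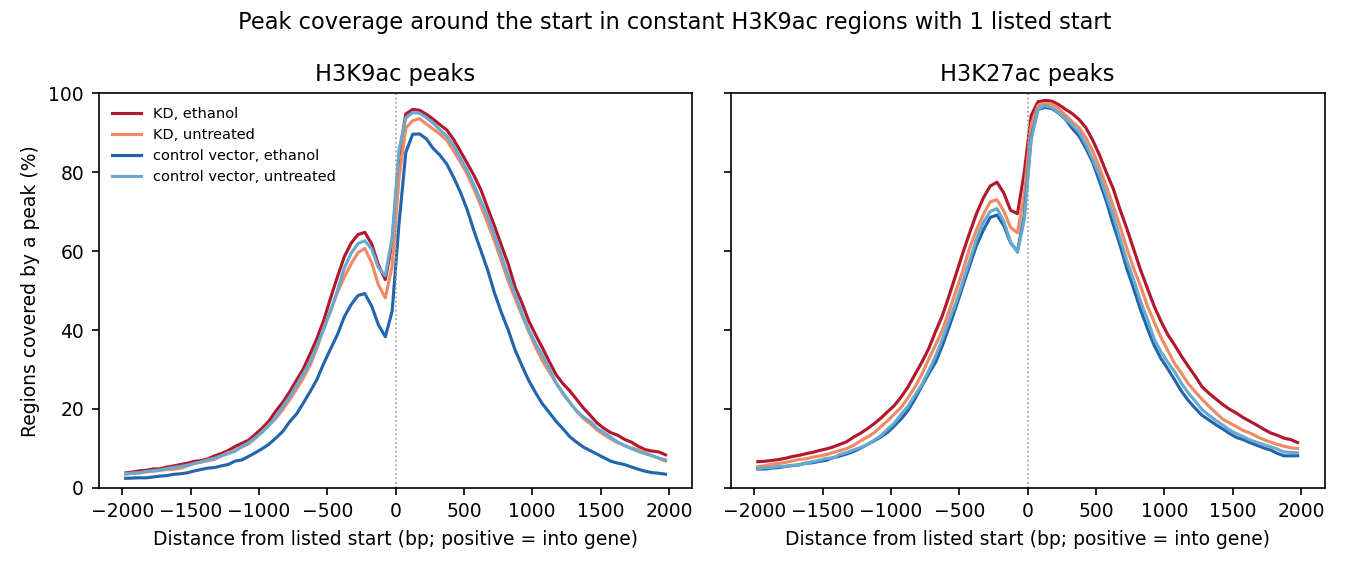
Percentage of the 6166 constant regions with 1 listed start that are covered by a peak, in bins of 50 bp by distance from the start in bp (positive into the gene), for the 4 H3K9ac lists (left) and the 4 H3K27ac lists (right). All lists show a summit inside the gene, a dip just before the start and a lesser summit upstream; the H3K9ac curve of the control ethanol list is lowest, at 89.8% at its summit.

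The 5247 constant regions (28.3%) not at a protein-coding gene end were narrower, with a median width of 872 bp against 1116 bp at gene ends. Their lowest rank, meaning the lowest of a region's 4 percentiles, had a median of 42.5, against 67.5 at gene ends. Their midpoints lay a median of 9.19 kb from the nearest end, and 66.1% lay inside a protein-coding gene. Many were nonetheless at starts: 1888 had a listed start within 1 kb. For 2821 regions (15.2% of all constant regions) there was neither an end of any gene type nor a listed start within 1 kb. An H3K27ac peak in all 4 lists was found in 92.3% of these 2821 regions, and 62.5% had the midpoint inside a gene.

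H3K27ac, which the rule did not use, was found in nearly every constant region. A peak of all 4 H3K27ac lists overlapped 18106 of them, or 97.7% (97.5 to 97.9), against 75.3%, 54.3% and 30.8% of the regions of 3, 2 and 1 lists. Among regions of 500 to under 1000 bp the shares were 97.7% and 83.7%, 74.6% and 62.3%, again without matching H3K9ac peak score. The median H3K27ac rank within its list was 92.5 in the KD ethanol list, 91.1 in the KD untreated list, 89.0 in the control ethanol list and 89.6 in the control untreated list. In regions of 3 H3K9ac lists the medians were 79.2, 74.2, 68.7 and 69.3 in the same order. H3K9ac and H3K27ac ranks of a condition correlated across constant regions with Spearman's rho of 0.738 to 0.785, again a description, since both marks were read from the same tissue.

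Only 28 constant regions overlapped no H3K27ac peak in any list, and 4 of them were at a gene end. The highest-ranking of these was chr2:98663713-98664091, with no gene around it; its H3K9ac percentile was 58.7 in the KD ethanol list, 69.6 in the KD untreated list, 98.1 in the control ethanol list and 66.9 in the control untreated list. It stood much higher in the control ethanol list than in the others. The region lay 1032 kb from the nearest gene end. Whether reads there map to a single place was not tested, so its values are uncertain. Next came narrow regions inside Vps45 (490 bp), between genes on chromosome 2 (231 bp), and inside Dpp9 (224 bp) and Chl1 (275 bp).

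Promoters with a constant region were rich in CpG. The CpG ratio is the observed count of CpG over that expected from the window's C and G. It was 0.6 or more in 9566 of the 12149 promoter windows that overlapped a constant region, or 78.7% (78.0 to 79.5). The share was 42.5% in windows overlapping a region of fewer lists only, 6.31% in the 18643 windows with no H3K9ac peak, and 35.8% in all 32817 windows. Windows in broad regions were at 72.4%. Read the other way, 1.70% of windows with a ratio under 0.2 had a constant region, as did 40.1% of those at 0.4 to under 0.6 and 88.9% of those at 1 or more. Within the constant regions the share of high-CpG windows also differed by lowest rank, at 64.2%, 77.2%, 85.7% and 87.9% in 4 rank classes of near-equal size, lowest to highest.

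**Figure D3:**
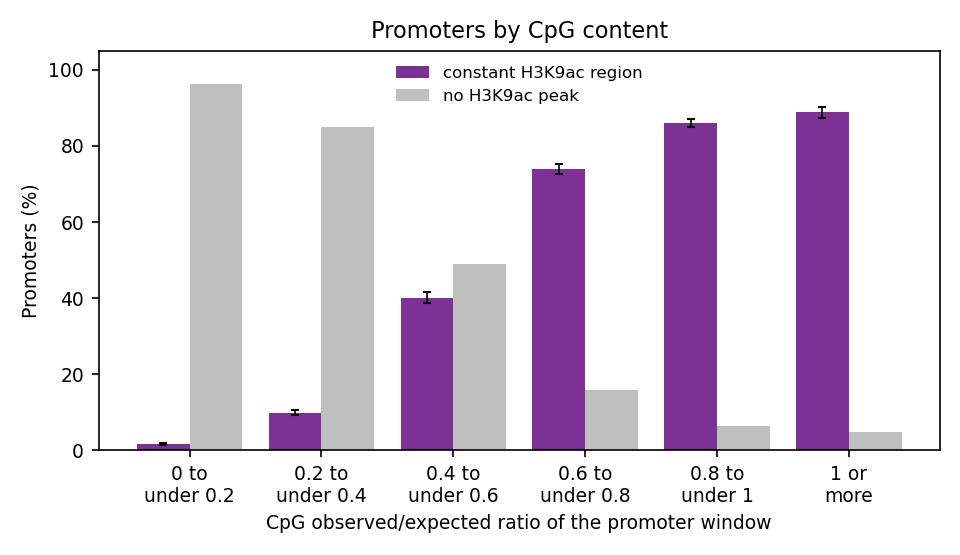
Percentage of promoter windows that overlap a constant H3K9ac region (purple, with 95% Wilson intervals) or no H3K9ac peak of any list (grey), by CpG observed/expected ratio. The purple bars go from 1.70% in the lowest class to 88.9% in the highest.

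Motifs were searched on both strands of the windows as exact letters, and a match is a description, not a binding site. The GC box of SP and KLF factors (GGGCGG) was in 68.5% of windows with a constant region, against 12.1% of windows with no H3K9ac peak and 35.6% of all windows. The ETS motif (CCGGAAG) was in 18.7%, against 2.60% and 8.86%. For the NRF1 motif (GCGCATGCG) the shares were 3.79%, 0.359% and 1.75%. For the YY1 motif (AAGATGGCG) they were 3.18%, 0.316% and 1.40%, for the ZBTB33 motif (TCTCGCGA) 2.30%, 0.166% and 0.993%, and for the cyclic AMP response element (TGACGTCA) 3.34%, 0.729% and 1.79%. All of these contain a CpG, which none of the following does.

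The TATA motif (TATAAA) ran the other way, in 5.58% of windows with a constant region, against 19.5% of windows with no peak and 13.6% of all windows. CCAAT was in 37.0%, against 38.1% and 37.4%, and the E-box CAGCTG in 14.3%, against 17.3% and 16.3%. The motifs' order was then read within high-CpG windows only, 9566 with a constant region and 1177 with no H3K9ac peak. These sets still differed in composition, with median CpG ratios of 0.851 against 0.736. The median share of G and C was 64.7% against 58.3%, so the motif shares are not compared at equal CpG. In the high-CpG windows the GC box was in 74.8% against 49.6%, ETS in 20.9% against 7.31%, NRF1 in 4.51% against 2.46% and TATA in 5.06% against 13.8%. The intervals overlapped for the response element, with 3.82% (3.45 to 4.22) against 3.31% (2.43 to 4.50). Among the printed windows, that of Sirt6 holds ETS and NRF1 matches, that of Acss2 GC box, ETS and CCAAT matches, that of Kat2b a CCAAT match and that of Kat2a none of the 9.

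Counted by gene, 11561 of 21887 protein-coding genes (52.8%) had a constant region at a gene end, and 12226 (55.9%) had one at an end or a listed start. A broad region was the only one at 249 genes, regions of fewer lists at 1512, and 8565 genes had no H3K9ac region at an end. The share of genes with a constant region was 32.9% (30.0 to 35.9) on chromosome X, against 54.4% (53.7 to 55.1) on the autosomes. On the autosomes it ran from 42.8% on chromosome 7 to 62.2% on chromosome 12. Of the constant regions 2.25% were on X, and 0.962% when each list was limited to peaks at or above its median score. Chromosome Y held 7 constant regions, none at an end of its 256 protein-coding genes (upper 95% limit 1.48%).

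Genes that every cell uses were nearly all members, beside 52.8% of all protein-coding genes. A constant region at a gene end was found for 78 of 79 cytosolic ribosomal protein genes, and Rpl22, the exception, had one at a listed start. It was found for 38 of 38 genes of RNA polymerase II and the general transcription factors, 30 of 31 proteasome genes, 35 of 37 aminoacyl-tRNA synthetases and 55 of 59 genes of oxidative phosphorylation. The exceptions Psma6 (proteasome), Aars2 and Tars2 (synthetases), and Cox5a and Cox7a2 (cytochrome oxidase) had constant regions at listed starts, and Ndufs1 and Uqcrh (respiratory complexes) had broad ones. The median lowest rank was 82.5 for the ribosomal list, 83.2 for the proteasome and 83.8 for oxidative phosphorylation, against 73.5 over all protein-coding genes with a constant region.

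Examples at the top of these lists were Rps19, Ndufc2 and Polr2c. The Rps19 region (ribosome small subunit) had 2122 bp covered in the KD ethanol list, 2327 bp in the KD untreated list, 1480 bp in the control ethanol list and 2044 bp in the control untreated list, and its lowest rank was 97.5. The Ndufc2 region (respiratory complex I) had 854, 858, 970 and 913 bp in the same lists, and its lowest rank was 98.4. The control ethanol list had the fewest covered bases at Rps19 and the most at Ndufc2.

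Transcription factors that bind many promoters were also mostly members, 25 of 28 at gene ends and 27 at ends or listed starts, and the one left, Myc, had a broad region. Sp3, a GC box factor, had a lowest rank of 99.3, Nrf1 97.6 and the ETS factor Elf1 93.9. Cell division and DNA replication genes, 22 of 30, ranked lower, with a median lowest rank of 48.2. Both counts stand beside 52.8% of all genes at gene ends, and the interval for the cell division list was 55.6% to 85.8%. Some of the cell division genes are named next. The replication clamp Pcna and the mitotic kinase Aurka were among the members, while Mki67, Cdk1 and Ccnb1 had regions of fewer lists only and Ccnb2 had none. The Aurka and Pcna regions also lie at ends of Cstf1 and Tmem230.

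Marker genes of single cell types gave smaller shares than the genes that every cell uses. They are read here beside the 52.8% of all genes and with no test. Excitatory neuron markers had 11 of 20 with a constant region and 5 more with a broad one only, among them Neurod2 (neuronal differentiation), Grin2a and Grin2b (NMDA receptor subunits), Nrgn and Syt1. Inhibitory neuron markers had 5 of 20, among them Gad1, Cck and Calb1. Gad2 (GABA synthesis), Slc32a1 (GABA loading into vesicles) and the peptides Sst, Vip and Npy had no H3K9ac region at an end. The count was 10 of 18 for astrocytes, 9 of 20 for oligodendrocyte lineage, 4 of 22 for endothelial and mural cells and 3 of 20 for microglia and macrophages. The intervals held 52.8% for excitatory neurons (34.2% to 74.2%), astrocytes (33.7% to 75.4%) and oligodendrocyte lineage (25.8% to 65.8%). They lay below it for inhibitory neurons (11.2% to 46.9%), endothelial and mural cells (7.31% to 38.5%) and microglia and macrophages (5.24% to 36.0%).

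Sall1 and Cd68 were among the microglial members. Aif1, Csf1r, Cx3cr1, P2ry12 and Tmem119, which define microglia, had no region at an end. The Cd68 region, with a lowest rank of 9.93, lies at an end of Mpdu1 as well. Genes of other tissues had 4 of 32, namely Apoa1, Acta1, Lor and Sftpc, and the Sftpc region lies at an end of Bmp1 too. Of the neuronal lists, the one named excitatory had constant or broad regions at most genes and the inhibitory one did not. Of all protein-coding genes 52.8% had a constant region at an end and a further 1.14% a broad one only. The excitatory list also holds genes of neurons in general, such as Syt1, Snap25, Rab3a and Stmn2, so it does not stand for excitatory neurons alone. The lists cannot say in which cells the mark lay.

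Immediate early genes, switched on by neuronal activity, had constant regions at 16 of 24 (46.7% to 82.0%, an interval that holds the 52.8% of all genes), and Arc, Egr3, Nr4a3 and Homer1 had broad ones only. With listed starts, the activity-dependent factors Npas4 and Egr2 and the neurotrophin gene Bdnf were added, which made 19. Jund ranked highest, with a lowest rank of 97.0, followed by Ier5 at 92.3 and Junb at 85.1. The Jund region had 1569 bp covered in the KD ethanol list, 1498 bp in the KD untreated list, 1476 bp in the control ethanol list and 1596 bp in the control untreated list. These 4 values lie close together.

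**Figure D4:**
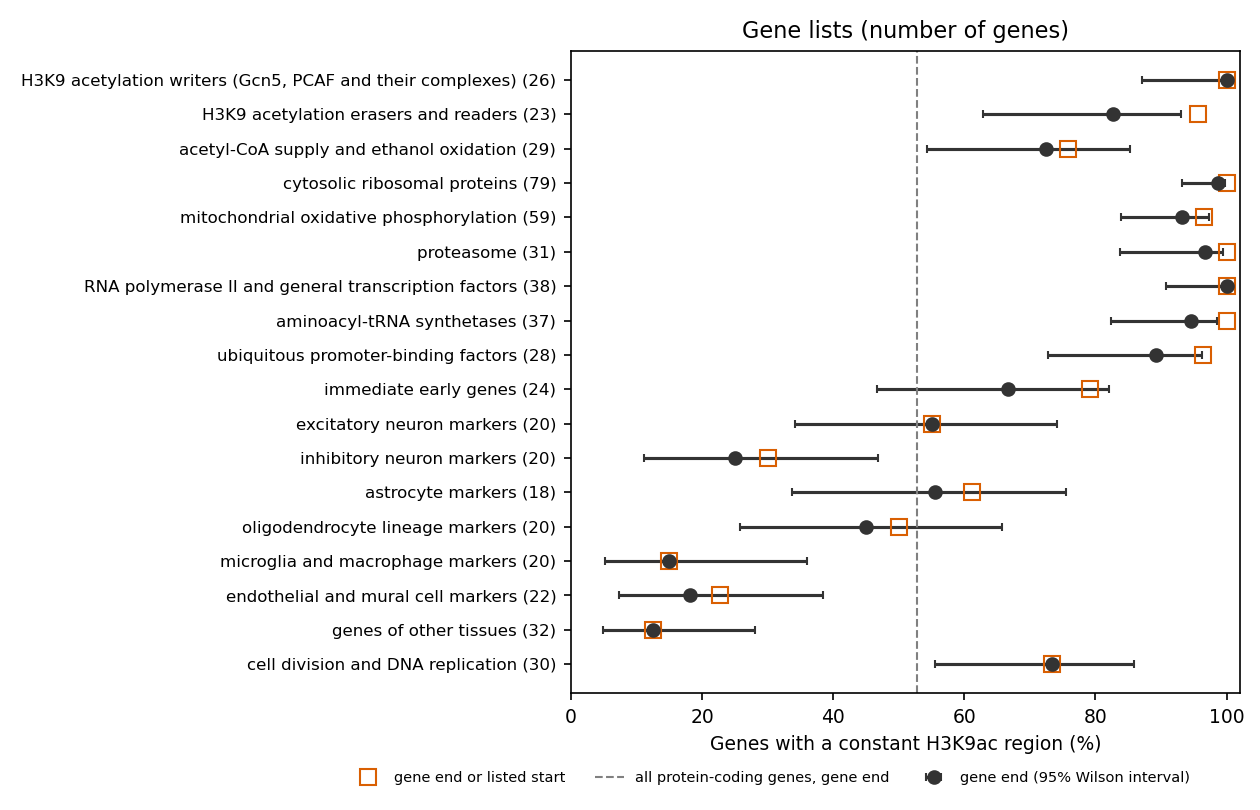
Percentage of the genes of each list with a constant H3K9ac region at a gene end (dots, with 95% Wilson intervals) or at a gene end or listed start (squares); the number of genes is in brackets and the dashed line is the 52.8% of all protein-coding genes. Housekeeping lists lie near 100% and the microglial, endothelial and other-tissue lists under 25%.

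Writers of H3K9ac were members without exception, as were the 38 genes of RNA polymerase II and the general transcription factors. All 26 genes of Kat2a, Kat2b and their complexes had a constant region at an end, beside 52.8% of all genes. Each had H3K27ac in all 4 lists, as did 98.9% of all constant regions at gene ends. Of erasers and readers 19 of 23 were members (62.9% to 93.0%). Brd2, Brd3 and Taf1, which bind acetylated histones, had constant regions at listed starts. Ncor1, a corepressor that carries Hdac3, had a broad one. The Kat2a region (chr11:100711388-100712492) had 1105 bp covered in the KD ethanol list, 1029 bp in the KD untreated list, 795 bp in the control ethanol list and 975 bp in the control untreated list. The Kat2b region (chr17:53566788-53568774) had 1801, 1734, 1540 and 1987 bp in the same lists. Both were least covered in the control ethanol list.

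Among the erasers, the Hdac3 region had 2237 bp covered in the KD ethanol list, 2202 bp in the KD untreated list, 1678 bp in the control ethanol list and 2416 bp in the control untreated list. The Sirt6 region at the start (chr10:81626733-81627642) had 725, 853, 529 and 716 bp in the same lists, and a second constant region at the same gene end (chr10:81627664-81628251) had 551, 483, 459 and 448 bp. The control ethanol list was lowest at Hdac3 and at the start of Sirt6 and close to the lowest at the second Sirt6 region. The Hdac3 region lies at an end of Rell2 as well, and both Sirt6 regions lie at an end of Ankrd24. Their values thus cannot be assigned to Hdac3 or Sirt6 alone. Hdac2 and Kdm1a, a histone demethylase that acts beside deacetylases, were other high-ranking members, with lowest ranks of 87.9 and 89.8.

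Genes of acetyl-CoA supply and ethanol oxidation had 21 of 29 with a constant region (54.3% to 85.3%, beside 52.8% of all genes), and Adh5 a constant region at a listed start. Acss1, Acss2 and Acly, which make acetyl-CoA from acetate or citrate, the pyruvate dehydrogenase genes Pdha1, Pdhb and Dlat, and the acetaldehyde dehydrogenase Aldh2 were members. The alcohol dehydrogenases Adh1 and Adh4 and the ethanol-oxidising Cyp2e1 had no region at an end. At Acss2 the region at the start (chr2:155518011-155519134) had 835 bp covered in the KD ethanol list, 777 bp in the KD untreated list, 690 bp in the control ethanol list and 1124 bp in the control untreated list. A second constant region just upstream (chr2:155517286-155517743) had 321, 219, 291 and 458 bp in the same lists. Both Acss2 regions were most covered in the control untreated list, and the hairpin acts on RNA, so these values check nothing about the knockdown.

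Dlat, a subunit of the same dehydrogenase complex, was least covered in the control ethanol list. It had 2105 bp in the KD ethanol list, 2060 bp in the KD untreated list, 1179 bp in the control ethanol list and 2417 bp in the control untreated list, although its percentile in the control ethanol list, 98.3, was the highest of the 4. The peak there was short but high-scoring.

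H3K9ac covered fewer bases of the constant regions with ethanol than untreated in mice with the control vector, and slightly more in KD mice. The ratio of covered bases, ethanol over untreated, had a median of 0.817 with the control vector, and the covered length averaged 756 bp with ethanol and 950 bp untreated. With KD the median ratio was 1.05, with averages of 978 and 922 bp. Past 1.5-fold, 4938 constant regions (26.7%) were narrower and 372 (2.01%) wider with ethanol in control-vector mice. Over all regions held by both lists of that pair, 27.2% were narrower and 2.58% wider, a background that consists mostly of the constant regions themselves. In the 1498 regions of both lists that were not constant, 34.1% were narrower and 9.68% wider, with a median ratio of 0.817. In KD mice 4.29% were narrower and 10.4% wider, beside a background of 7.08% and 13.5%, and 16.6% and 24.0% in the 5413 regions of both lists that were not constant.

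KD over control vector had a median ratio of 1.26 with ethanol, and 29.2% of constant regions were wider and 1.71% narrower, beside a background of 29.7% and 2.34%, and 34.8% and 9.17% in the 1712 regions of both lists that were not constant. Without treatment the median was 0.978, with 5.54% wider and 9.23% narrower, beside 7.83% and 11.7%, and 17.3% and 21.9% in the 4451 such regions. The 4 comparisons share lists pairwise, and the same lists chose the regions, so these are descriptions. Both large shifts involve the control ethanol list, which also had the fewest peaks, and the part of sequencing depth in them was not tested. With all H3K9ac lists shortened to equal length by score, 24.6% were narrower with ethanol in control-vector mice and 26.96% wider in KD over control vector with ethanol.

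**Figure D5:**
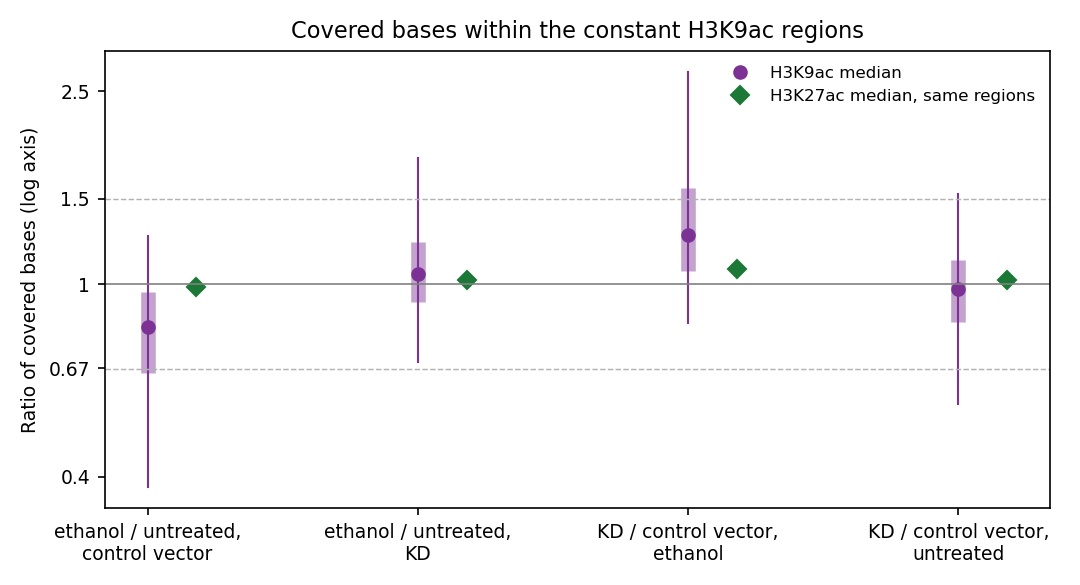
Ratio of covered bases within constant H3K9ac regions for the 4 comparisons, on a log axis; purple dots are H3K9ac medians, thick bars the middle 50% of regions, thin lines the 5th to 95th percentiles, and green diamonds the H3K27ac medians in the same regions. H3K9ac medians are 0.817, 1.05, 1.26 and 0.978, and H3K27ac medians lie between 0.989 and 1.07. H3K27ac was counted only within the edges set by the H3K9ac peaks.

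H3K27ac coverage within the same regions moved less, but the marks were not counted on equal terms. Region edges come from H3K9ac peaks, so a change of H3K27ac outside them was not seen. H3K27ac covered a median of 81.1% (control ethanol list) to 90.5% (KD ethanol list) of a region, so a ratio near 1 is partly built in. Its median ratio, ethanol over untreated, was 0.989 with the control vector and 1.02 with KD, and KD over control vector it was 1.07 with ethanol and 1.02 without. With ethanol in control-vector mice 3.69% of constant regions had narrower H3K27ac and 2.87% wider, beside 8.69% and 7.67% of all H3K9ac regions with both H3K27ac lists, the constant ones included. In KD mice the shares were 1.16% and 3.42%, beside 4.48% and 9.01%. For KD over control vector they were 0.740% narrower and 6.95% wider with ethanol, beside 3.18% and 13.8%, and 1.86% and 4.34% without treatment, beside 5.51% and 10.1%. Of the 4841 regions with narrower H3K9ac in control-vector mice given ethanol and H3K27ac in both lists, 6.63% also had narrower H3K27ac and 4.79% wider, and the median H3K27ac ratio there was 0.982.

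Past 1.5-fold, both narrower and wider H3K9ac was more frequent where H3K27ac ranked low. In control-vector mice with ethanol, 44.7% of constant regions were narrower in the lowest of 4 equal classes by mean H3K27ac rank, then 30.7%, 18.7% and 12.1% up to the highest class, and 4.97%, 1.39%, 0.508% and 0.331% were wider. The medians of the ratio were 0.711, 0.786, 0.836 and 0.856, so the highest class too had a median below 1. Away from gene ends 35.3% of regions were narrower and 3.62% wider, and at gene ends 23.3% and 1.37%. By gene list the median ratio ran from 0.505 over the 3 microglial members and 0.563 over the 5 inhibitory neuron members to 0.917 over the 26 writers.

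Gad1 and Stc2 had the largest ratios of the 4 comparisons among regions at protein-coding gene ends. Gad1, the enzyme of GABA synthesis, had 2282 bp covered in the KD ethanol list, 1736 bp in the KD untreated list, 197 bp in the control ethanol list and 1643 bp in the control untreated list (chr2:70561825-70564254). Stc2, a secreted glycoprotein, had 1540, 710, 139 and 1521 bp in the same lists (chr11:31368537-31370207). The control ethanol list stands alone at Gad1. At Stc2 it was lowest too, but the KD untreated list was also well below the remaining lists. In the control ethanol list 139 bp was the shortest length covered in any constant region, so the Stc2 ratios with that list rest on the narrowest peaks. Ranks in the control ethanol list, 50.7 at Gad1 and 31.8 at Stc2, show peaks of middling to low score. H3K27ac at Gad1 covered 2273, 2183, 1436 and 1852 bp in the same lists, which is also lowest in the control ethanol list but by far less. It was counted only within the edges set by the H3K9ac peaks.

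Other members with very unequal coverage were Sstr1, a somatostatin receptor, with 2040 bp in the KD ethanol list, 406 bp in the KD untreated list, 250 bp in the control ethanol list and 1581 bp in the control untreated list. Gprasp1, on chromosome X, was among the 372 regions wider by 1.5-fold or more after ethanol in control-vector mice, at 492 bp with ethanol and 145 bp untreated, a ratio of 3.39. Armcx4, also on X, had the largest ethanol ratio in KD mice, with 835 bp with ethanol and 145 bp untreated. At Asah2, a ceramidase gene, the KD lists had 220 bp with ethanol and 980 bp untreated. For Fxr2 the untreated lists had 667 bp with KD and 145 bp with the control vector. In the KD untreated and control untreated lists 145 bp was the shortest length covered in any constant region, so the ratios of Gprasp1, Armcx4 and Fxr2 rest on the narrowest peaks.

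At the top of the ranks among regions at protein-coding gene ends stood Mat2a, whose region (chr6:72437563-72439584) had a lowest rank of 99.8 and 1746 bp covered in the KD ethanol list, 1391 bp in the KD untreated list, 1260 bp in the control ethanol list and 1690 bp in the control untreated list. Next came Cntfr and the chemokine gene Ccl21b, both with a lowest rank of 99.7. Their promoter windows share an unbroken run of 266 of 300 bases, so reads from either copy may not be assignable and their values are uncertain. The other named regions at gene ends were clusters of core histone genes on chromosome 13: H2bc23 with H2ac23, H2ac24 with H4bc24, H2ac12 with H2bc12, H2bc13 with H2ac13 and H3c10, and H2ac4 with H3c2. Of 63 clustered histone genes, a set taken up after these ranks were seen, 62 had a constant region, with a median lowest rank of 99.3. These are near-identical copies too, and the handling of reads that map to several places is not stated in the sources used here.

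Away from any gene end the highest-ranking regions were chr8:20121763-20123962, with no gene around it, 2 regions in Gm4724 and 1 in Gm4631 on chromosome 2, and 1 region each inside Rpl19 and Hnrnpu. The 3 chromosome 2 regions had widths of 2036 to 2038 bp and, at 2 of them, the same percentiles in the KD lists, 99.3 and 99.9, and are uncertain for the same reason. The region in Rpl19, a ribosomal protein gene, holds a listed start that the outermost ends of the gene table miss.

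At the bottom, membership rested on peaks at the calling limit. The smallest lowest ranks were 0.0154 at Fam221b and at Hpse2 and 0.0637 at Trafd1. Hpse2, an inactive relative of heparanase, had 666 bp in the KD ethanol list, 206 bp in the KD untreated list, 154 bp in the control ethanol list and 515 bp in the control untreated list, with no base common to all 4. Just inside the width limit were Fbxo36 and Loxl3 at 2998 bp and Yod1 at 2993 bp. Just outside it were Slc25a4 and Dazap1 at 3000 bp and Fosl2 at 3001 bp. The narrowest members, in Lyrm4 (181 bp), Gm40365 (186 bp) and Camta1 (189 bp), were covered by at least 139 bp in each list.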

How the data were processed

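Peak lists were analysed for 24 ChIP samples in 8 groups of 3 replicates, and the 12 input samples were not analysed here. Per the submitters' processing notes, STAR 2.5.2a, MACS2, bedtools and bcl2fastq were used, on GRCm38 (mm10). Per the labels, peaks were called against input at a false discovery rate of 0.001. The deposited score reads as −log10 of the q-value, since its lowest value over all lists is 3.00, and the deposited positions were used as given. How the authors pooled replicates is not stated in the sources used here. Depth and replicate spread are thus unknown.

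Peaks were merged and counted with Python 3.11.15, numpy 2.4.6, pandas 2.3.3 and scipy 1.17.1, and the interval code was tested on simulated data. Gene ends came from RefSeq (GRCm38.p6, 21887 protein-coding genes, no strand), and 32817 promoter windows from a RefSeq table without chromosome 18. All 556 symbols of the 18 gene lists matched. Ratios used covered bases, with 1.5-fold as the limit. The members and lists were chosen with earlier results of these data known. Named were the highest- and lowest-ranking regions, those beside the width limit, the largest ratios, the highest-ranking without H3K27ac, the top 3 of each gene list with up to 3 absent members, and Acss2, Kat2a, Kat2b, Sirt6 and Hdac3. Alternatives covered score filters, list length, merging distance, windows, width limits and folds.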

Additional observations from a re-analysis of the deposited data

Results flagged for a closer look

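The ethanol ratio of H3K9ac-covered bases in the constant regions pointed in opposite directions in the vector groups, with a median of 1.05 in KD mice and 0.817 in control-vector mice. KD over control vector likewise had medians of 1.26 with ethanol and 0.978 untreated. Each side is 1 list against 1 list, so the difference was not tested. On unplaced scaffolds, which the rule leaves out, 45 further regions under 3000 bp held a peak of all 4 lists.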

How the results depend on the processing

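The count of constant regions stayed within 1.5 times of 18524 under 10 of 11 settings, and fell to 12267 with peaks at or above the list's median score. Without 1 list at a time it was 18855 (KD ethanol left out), 19277 (KD untreated), 21524 (control ethanol) and 19015 (control untreated). The share at gene ends was 67.4% with 500 bp on either side, 77.6% with 2500 bp, 64.5% by midpoint, 78.0% for all gene types, 81.6% with the median-score filter, 73.9% with lists of equal length, and, in alternatives chosen after seeing the data, 66.6% at widths of 500 to under 1000 bp and 81.9% with listed starts. H3K27ac in all lists was 88.1% if it had to cover 50% of the region, 92.1% with its own median-score filter, 97.1% with H3K27ac lists of equal length and 99.7% with the H3K9ac median-score filter. High-CpG promoters were 57.9% at a ratio of 0.75 and 79.7% for protein-coding genes. Regions on X were 2.25% of constant regions, and 0.962% with the median-score filter. Regions over the median in all lists were 69.8% with lists of equal length.

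Past 2-fold, ethanol over untreated was lower in 10.6% and higher in 0.572% of regions with the control vector, and lower in 1.25% and higher in 3.56% with KD; KD over control vector was lower in 0.475% and higher in 12.4% with ethanol, and lower in 3.11% and higher in 1.77% untreated. By the width of the highest-scoring peak the same shares were 34.9% and 4.66%, 9.33% and 18.9%, 3.97% and 37.6%, and 17.1% and 10.7%. With lists of equal length, 24.6% were lower with ethanol (control vector) and 26.96% higher in KD over control vector with ethanol. The larger direction stayed the same in each comparison. Cut-offs and windows move these shares by construction; other causes were not tested.

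No paired analysis was possible because each group has 1 list shared by its 3 replicates, and leaving out a replicate was not run for the same reason. Unknown depth limits any comparison of widths between lists.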
